A study of Mus musculus with 12 samples.

Results

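The genes described here encode the enzymes that add or remove methyl groups on histones and that add acetyl groups to lysines, together with the PRDM proteins. They are the protein-coding genes whose symbols begin with Kdm, Kmt, Setd, Kat or Prdm and a number, the Setdb genes, Ezh1 and Ezh2, Ehmt1 and Ehmt2, and Suv39h1 and Suv39h2. This choice by name, which used no measured value, gave 64 of the 21883 protein-coding genes of the RefSeq table on chromosomes 1 to 19, X and Y. They comprised 18 Kdm, 8 Kmt, 10 Setd or Setdb, 8 Kat and 14 Prdm genes and 6 of the Ezh, Ehmt and Suv39h class.

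Open chromatin was mapped by ATAC-seq, which tags open DNA with adapters carried by a transposase, in neurons from a region of the mouse prefrontal cortex, the infralimbic part, of C57BL/6 males aged 10 to 12 weeks. Both groups had learned to fear a tone through 3 pairings with a foot shock of 0.7 mA. On the next day the extinction mice (EXT) heard 60 tones in another context, named context B, and the retention control mice (RC) stayed in context B for as long without tones. Tissue was taken directly afterwards, and cells positive for the neuronal protein NeuN and for Arc, the product of an activity-induced gene, were sorted. Each library pooled 5 mice and 50000 cells, so a replicate is a pool. No genotype or drug separated the groups, and fear conditioning was common to both. The question is which of these genes had open chromatin in the sorted neurons, and whether that differed after extinction.

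Lysine methylation of histones is written by enzymes with a SET domain, among them the KMT, SETD, EZH, EHMT and SUV39H proteins, and by the unrelated DOT1L. It is erased by flavin-dependent and JmjC-domain demethylases of the KDM class. The KAT enzymes acetylate histones and other proteins, marks that accompany active promoters and enhancers. PRDM proteins carry a PR domain related to SET beside zinc fingers, and several are known for setting cell fates in development, some without a shown enzyme activity.

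Peak lists that ran through the whole genome came from 3 libraries, RC replicate 3 (97961 peaks), EXT replicate 1 (80735) and EXT replicate 2 (123375). The library totals were 73.8 M, 65.0 M and 57.7 M tags, so the longest list came from the library with the fewest tags. RC replicates 1 and 2 (69.1 M and 68.9 M tags) were usable only on chromosome 1 up to positions 166286196 and 37624379. An end peak, defined below, was present in all 3 complete lists at 6 of 8 pan-neuronal marker genes, and also at Arc. Rbfox3, which encodes NeuN, had one in EXT replicate 2 alone, and Stmn2 had one in both EXT libraries and not in RC replicate 3. Such a peak was present in all 3 lists at 4 of 5 excitatory and at 1 of 5 inhibitory neuron markers (Lhx6, with Dlx1 open in no list). The share over all coding genes was 49.0%. Of 20 markers of astrocytes, oligodendrocytes, microglia and endothelial cells, 4 had such a peak in all 3 (Gfap, Sox10, Olig1 and Cldn5), and 13 had none in any of the 3, among them Aqp4, Mog, Cx3cr1 and Pecam1. These counts describe accessibility, not the number of cells of a type, and in a pooled sort the share of open cells and the openness per cell cannot be told apart.

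Promoter windows from RefSeq (build GRCm38.p6, the same as mm10) are shown for 6 of these genes because the results below turn on them. They are the 3 genes with the highest mean rank of an end peak among members in the promoter table with an end peak in all 3 complete lists, a gene with a closed outer and an open inner start, a gene with no peak at its start, and Prdm9, which is best known from germ cells; the last 3 genes were chosen after their values were seen. Each window runs from 250 bases before to 50 bases after the start, 5′ to 3′ on the strand of the gene. Capitals mark letters of motifs searched on both strands, spelled TGACGTCA (the cAMP response element, CRE), TGANTCA (AP-1), CCGGAAG (ETS) and GGGCGG (SP/KLF). The longer NRF1 and YY1 motifs were searched too and matched in none of these windows.
Setd3, chr12:108179235-108179534, minus strand: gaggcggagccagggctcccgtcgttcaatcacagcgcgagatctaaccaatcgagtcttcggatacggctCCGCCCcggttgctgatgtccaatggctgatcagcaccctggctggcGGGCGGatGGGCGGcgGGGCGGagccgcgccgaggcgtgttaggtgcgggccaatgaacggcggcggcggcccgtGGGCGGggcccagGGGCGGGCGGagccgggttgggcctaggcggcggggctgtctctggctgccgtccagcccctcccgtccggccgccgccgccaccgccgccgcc
Kdm4a, chr4:118179994-118180293, minus strand: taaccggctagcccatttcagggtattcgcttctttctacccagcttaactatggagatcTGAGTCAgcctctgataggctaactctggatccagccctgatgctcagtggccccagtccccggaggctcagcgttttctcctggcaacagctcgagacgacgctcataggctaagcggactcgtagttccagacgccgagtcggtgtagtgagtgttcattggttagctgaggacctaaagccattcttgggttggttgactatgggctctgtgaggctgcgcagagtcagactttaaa
Kat7, chr11:95310197-95310496, minus strand: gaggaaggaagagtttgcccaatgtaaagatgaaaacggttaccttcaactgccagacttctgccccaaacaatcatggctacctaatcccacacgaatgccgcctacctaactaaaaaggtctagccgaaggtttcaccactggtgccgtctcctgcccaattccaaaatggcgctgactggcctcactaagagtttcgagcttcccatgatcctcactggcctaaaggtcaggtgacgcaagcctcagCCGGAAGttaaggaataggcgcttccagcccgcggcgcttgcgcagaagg
Kdm4c outer start, chr4:74242247-74242546, plus strand: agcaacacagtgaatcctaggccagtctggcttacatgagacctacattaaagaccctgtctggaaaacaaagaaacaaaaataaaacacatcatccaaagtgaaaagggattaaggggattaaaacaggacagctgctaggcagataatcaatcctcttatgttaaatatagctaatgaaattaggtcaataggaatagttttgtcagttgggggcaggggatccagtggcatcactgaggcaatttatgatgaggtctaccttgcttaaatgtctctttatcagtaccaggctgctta
Kdm4c inner start, chr4:74251629-74251928, plus strand: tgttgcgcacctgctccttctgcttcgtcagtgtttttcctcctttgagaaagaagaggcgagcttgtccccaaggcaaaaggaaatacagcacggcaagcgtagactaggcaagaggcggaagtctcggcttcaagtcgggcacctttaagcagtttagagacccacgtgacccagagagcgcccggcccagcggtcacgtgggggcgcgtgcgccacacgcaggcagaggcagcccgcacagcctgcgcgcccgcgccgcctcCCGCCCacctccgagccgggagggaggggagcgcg
Kat2b, chr17:53566721-53567020, plus strand: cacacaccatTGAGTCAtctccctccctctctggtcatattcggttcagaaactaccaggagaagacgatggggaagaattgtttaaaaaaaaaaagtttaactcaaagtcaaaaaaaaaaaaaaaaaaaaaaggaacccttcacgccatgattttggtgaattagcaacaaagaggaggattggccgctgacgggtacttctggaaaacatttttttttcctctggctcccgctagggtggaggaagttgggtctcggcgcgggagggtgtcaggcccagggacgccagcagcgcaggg
Prdm9, chr17:15564305-15564604, minus strand: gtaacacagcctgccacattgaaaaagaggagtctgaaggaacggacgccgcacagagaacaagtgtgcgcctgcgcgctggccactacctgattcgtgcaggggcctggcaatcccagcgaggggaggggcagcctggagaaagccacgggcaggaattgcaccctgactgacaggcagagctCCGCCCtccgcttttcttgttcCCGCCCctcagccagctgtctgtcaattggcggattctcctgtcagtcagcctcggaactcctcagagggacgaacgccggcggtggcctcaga
The Setd3 window held 7 SP/KLF matches and 40 CpG dinucleotides, those of Kdm4a and Kat7 held 13 and 14 CpGs with 1 AP-1 and 1 ETS match. The outer Kdm4c window held no CpG and no match, and the inner one held 28 CpGs. A match describes the letters only and is no evidence that a factor binds.

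Most of these chromatin genes had an accessible end in the sorted neurons. An end peak is a peak sharing 1 bp or more with a window that reaches 1 kb to each side of the lower or upper end of a gene. This held for 53 of 64 members in RC replicate 3 (82.8%, exact 95% interval 71.3 to 91.1%), where the share over all protein-coding genes was 56.0%. In EXT replicate 1 it held for 46 members (71.9%, 59.2 to 82.4%) against 53.3% of all coding genes, and in EXT replicate 2 for 55 members (85.9%, 74.98 to 93.4%) against 61.1%. The intervals are binomial (Clopper-Pearson) and cover counting error only. With lists cut to the length of the shortest, the counts were 52, 46 and 54, and EXT replicate 1 stayed the lowest. A peak anywhere in the span or at its ends was found for 62, 61 and 63 members, against 71.0%, 68.8% and 74.1% of all coding genes. The members are long, with a median span of 45.7 kb against 17.2 kb, which bears on the last of these counts.

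**Figure D1:**
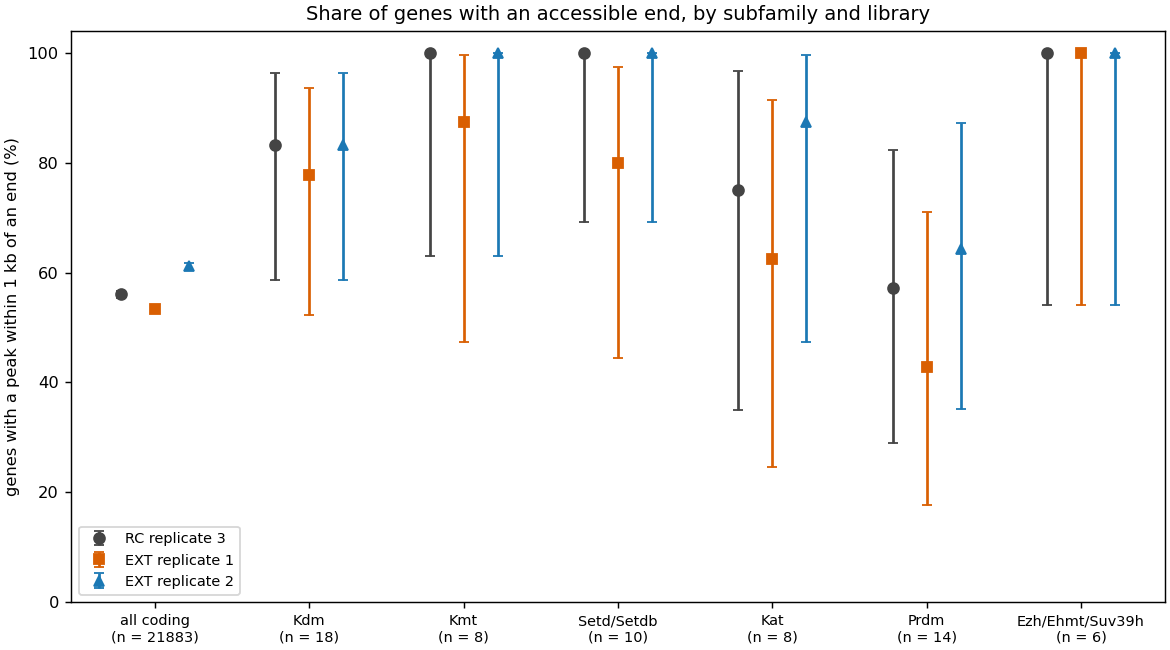
Share of genes with a peak within 1 kb of an annotated end (vertical axis, percent) for all protein-coding genes and for the 6 subfamilies, with 1 symbol per library and exact 95% binomial intervals. The Ezh, Ehmt and Suv39h genes are at 100% in all 3 libraries, and the Prdm genes lie between 42.9% and 64.3%, with wide intervals in every subfamily.

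Extinction and control libraries did not separate on these genes. The share of members with an end peak was 82.8% in the RC library and 78.9% ± 9.94 (SD, n = 2) in the EXT libraries, a difference of -3.91 percentage points. The RC value lay between the EXT values, and the difference was 3.12 points without EXT replicate 1, -10.9 without EXT replicate 2 and 0.781 with 2 kb windows. An exact two-sided permutation test over the 3 ways to divide the libraries gave p = 1, where the smallest p possible was 0.333, so this design cannot detect a difference. Over all coding genes the difference was 1.19 points. No member was open at an end in both EXT libraries while closed in RC replicate 3, a pattern of 2.01% of coding genes. None showed the reverse, a pattern of 1.06% of coding genes.

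The 64 members fell into 4 patterns over the lists. Open ends in all 3 lists were found at 46 members (71.9%), against 49.0% of coding genes. In RC replicate 3 and EXT replicate 2 but not EXT replicate 1, 7 members did (10.9% against 4.69%): Kat6b, Kdm6b, Kmt5b, Prdm8, Prdm15, Setd1b and Setdb1. No member was open in RC replicate 3 and EXT replicate 1 alone, against 1.27% of coding genes. In EXT replicate 2 alone, Kat14 and, at its far end, Prdm12 did, against 5.40% of coding genes. The remaining 9 members (14.1% against 35.5%) had no end peak in any list, among them Kat2b, Kdm4c, Kdm5d, Kdm6a, Prdm1, Prdm10, Prdm14 and Prdm16. The 7 members missing from EXT replicate 1 thus differed between the EXT libraries, within a group.

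A wide window removed part of that pattern. Kat6b encodes an acetyltransferase of the MYST family, and its peak in EXT replicate 1 (chr14:21500340-21501318, fold 10.6) overlapped the peaks of RC replicate 3 (chr14:21500051-21501281, fold 12.5) and EXT replicate 2 (fold 14.0). It began just beyond the 1 kb window, and these peaks ranked at the 99.8th to 99.9th percentile in all 3 libraries. Kdm6b, an eraser of methylation at lysine 27 of histone H3 that is induced in many activated cells, likewise had a peak in EXT replicate 1 (fold 5.09) overlapping that of RC replicate 3 (fold 6.06). No peak of EXT replicate 1 overlapped the end peaks of the other 5. With 2 kb windows the member counts were 57, 56 and 59.

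The peaks at these ends ranked high within their lists. Ranks are used because the authors called each list separately: the percentile is the position of a peak among all peaks of its list by −log10 q, with 100 the highest, and fold is the authors' ratio of pileup to local background. Over members with an end peak, the median percentile of the best one was 88.6 (RC replicate 3), 84.4 (EXT replicate 1) and 93.2 (EXT replicate 2), the order of libraries used from here on. Over all coding genes with an end peak it was 80.5, 77.6 and 85.7. The median width was 569, 538 and 620 bp for the members and 449, 406 and 539 bp for all coding genes. The plot of percentiles by gene shows that the values of a member differed more between libraries in the middle of the range than near its top. The scale ends at 100, so values there lie close together, and the order of the top members was not the same in every list.

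**Figure D2:**
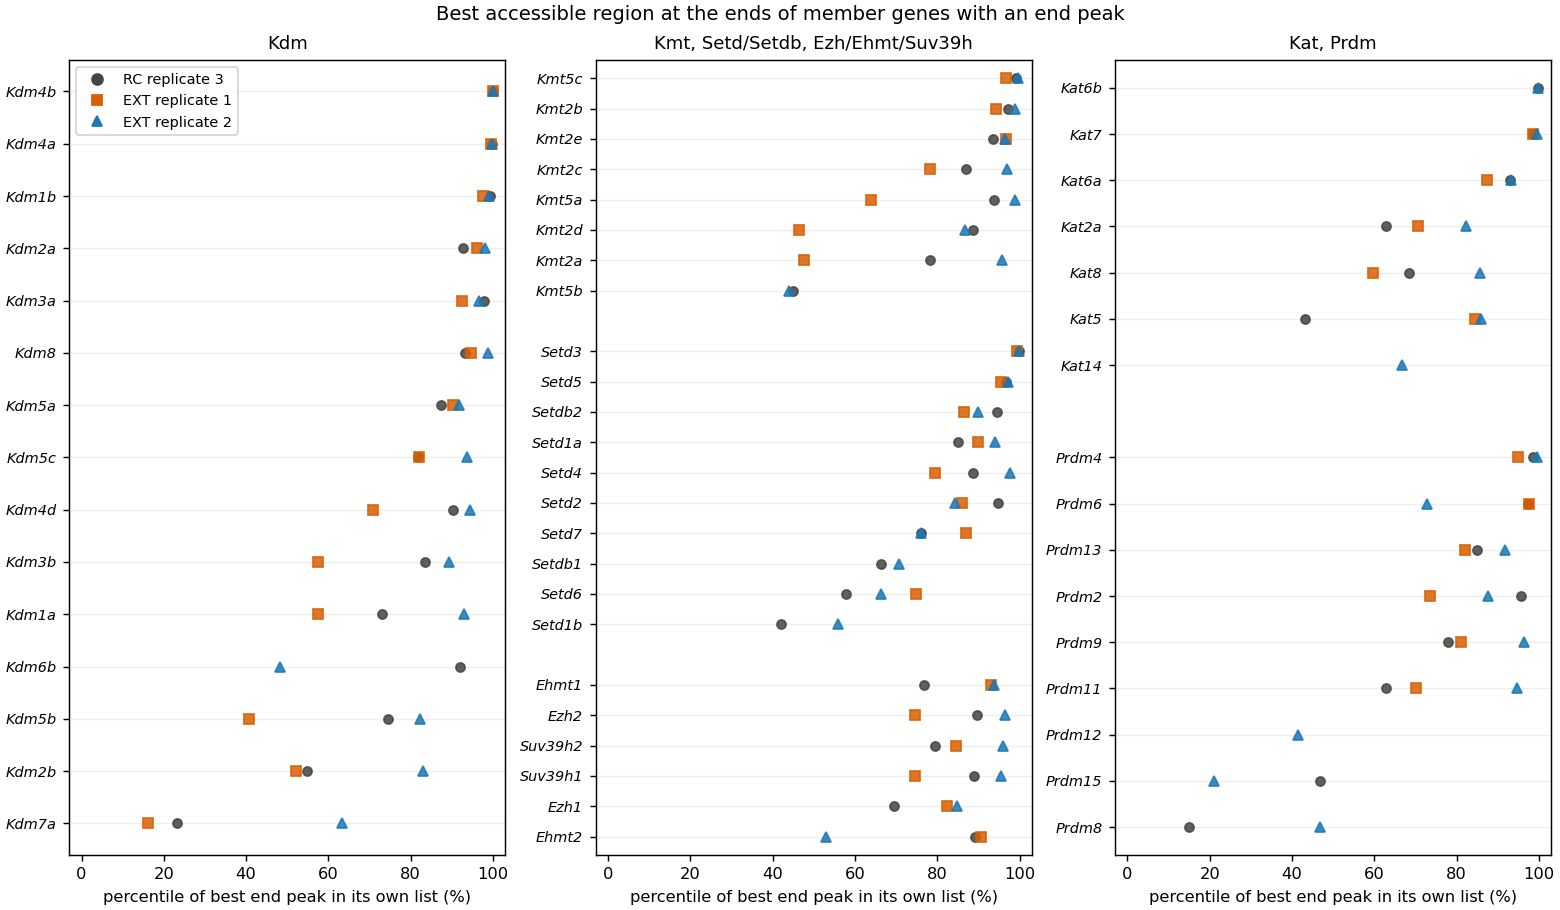
Percentile of the best end peak within its own list for the 55 member genes with an end peak in at least 1 list (horizontal axis, percent, 100 the highest), with 1 symbol for each of the 3 complete libraries and genes sorted by mean within their subfamily. Kdm4b, Kdm4a, Setd3, Kat7 and Kmt5c sit near 100 in every library, and the 9 members with no end peak are not drawn.

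Among the demethylases, 15 of 18 Kdm genes were open at an end for RC replicate 3, 14 for EXT replicate 1 and 15 for EXT replicate 2. Those open in all 3 lists numbered 14. The highest-ranked end peak of the 64 members, in each list, stood at Kdm4b (chr17:56325970-56403774), which encodes an eraser of methylation at lysines 9 and 36 of histone H3. Its folds were 16.1, 13.9 and 18.5 in that order of libraries, all above the 99.8th percentile, on nearly the same bounds (chr17:56325473-56326132 in RC replicate 3). Its relative Kdm4a, whose promoter is printed above, had folds of 15.9, 12.5 and 17.5 over a peak of 788 to 856 bp that spanned the start. Kdm4d, a further member of that branch, had folds of 7.70, 4.90 and 11.6. Kdm1b, a flavin-dependent eraser of lysine 4 methylation, had folds of 11.6, 8.47 and 13.0, and its relative Kdm1a had 4.96, 3.75 and 8.69. The peaks at Kdm4d and Kdm1b also cover an end of a neighbouring coding gene, Cwc15 and Tpmt, so they cannot be given to one gene. In each of these 5 Kdm genes the highest fold was in EXT replicate 2 and the lowest in EXT replicate 1, with the RC library between them. The median fold over all coding genes with an end peak had the same order (5.49, 5.06 and 7.11), so the order is not particular to these genes.

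The weakest Kdm gene open in all lists was Kdm7a (chr6:39136620-39206773), which encodes an eraser at lysines 9 and 27. Its folds were 2.80, 2.82 and 4.51, at percentiles of 23.3, 16.2 and 63.3, a spread of 47.1 points that was among the widest of the members. Kdm5b, an eraser of lysine 4 methylation, lies on chromosome 1 (134560178-134632878) where RC replicate 1 could be read too. Its folds were 8.05 and 4.50 in RC replicates 1 and 3, and 3.08 and 5.63 in EXT replicates 1 and 2. The values of both groups overlapped. Percentiles were 91.3 (RC replicate 1, within its incomplete list), 74.4 (RC replicate 3), 40.7 (EXT replicate 1) and 82.3 (EXT replicate 2). By difference in fold the RC libraries lay further apart, but by percentile the EXT libraries did. Each of these Kdm5b peaks also reaches the end window of the neighbouring coding gene Mgat4e, so they cannot be given to one gene.

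The 3 Kdm genes with no end peak differed in kind. Kdm4c had no peak at its outer start in any list, but at the inner start, 9382 bp into the gene, peaks of 1213, 1012 and 1055 bp had folds of 6.17, 4.80 and 10.7. Kdm6a, an X-linked eraser of lysine 27 methylation, had folds of 5.34, 3.22 and 12.3 at a start 1713 bp inside its span. Kdm5d lies on the Y chromosome and had no peak at its ends or inside in any list. Only 0.781% of the 256 coding genes on Y had an end peak in all 3 lists, against 22.3% of 966 on X and 49.0% of all coding genes. The lists held 62, 42 and 48 peaks on Y, and Uty, a Y-linked gene of the JmjC class, had an end peak in all 3. Thus 2 of the 3 Kdm genes had an open start that the outer ends missed, and how reads on Y were treated upstream is not stated in the files or labels.

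**Figure D3:**
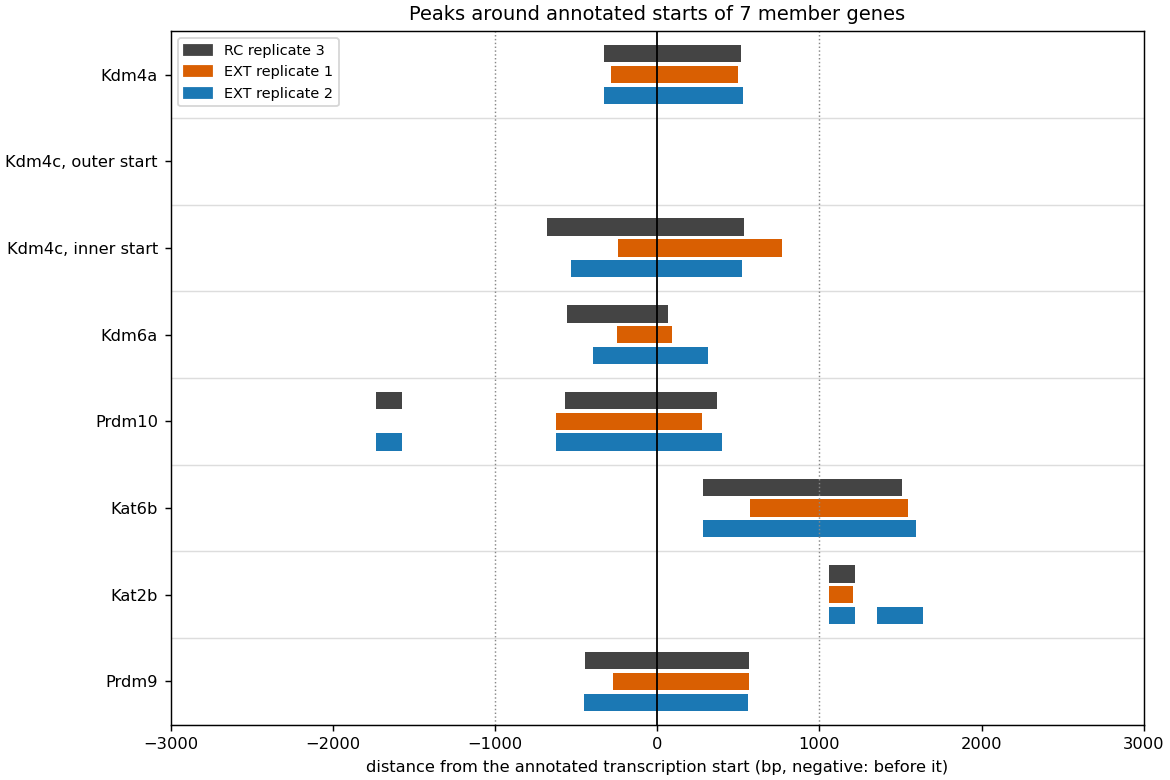
Peaks of the 3 complete libraries (1 bar each) around annotated transcription starts of 7 member genes, with distance from the start in bp along the horizontal axis (negative before the start) and dotted lines at 1000 bp either side. Kdm4a and Prdm9 have a peak across the start in all 3 libraries, the outer start of Kdm4c has none and its inner start has 1 in each, and the Kat6b peak of EXT replicate 1 begins 570 bp after the start.

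Nearly all Kmt genes had an open end. All 5 Kmt2 genes, which encode the large methyltransferases of lysine 4 of histone H3 and an inactive relative, Kmt2e, were open at an end in every complete list, as were 2 of 3 Kmt5 genes. Kmt5c, a methyltransferase of lysine 20 of histone H4, ranked highest in this class, with folds of 9.88, 7.72 and 13.3 on chr7:4739574-4740262 in RC replicate 3. Kmt5b, the related enzyme, had folds of 3.30 in RC replicate 3 and 3.23 in EXT replicate 2, below the median folds of those lists (3.87 and 4.41), and had no end peak in EXT replicate 1. Kmt2a (chr9:44803355-44881352) had the widest spread of the members open in all lists, with folds of 3.96, 2.73 and 6.52 and percentiles of 78.2, 47.5 and 95.6, a spread of 48.1 points. Its best peak in EXT replicate 1 lay at chr9:44882135-44882464, apart from the peak of EXT replicate 2, which crossed the start, and that of RC replicate 3, which began just before it (chr9:44881338-44881827). Kmt2d spread by 42.3 points, with folds of 5.88, 3.19 and 6.56, but these peaks lay at its far end (chr15:98831303-98831886 in RC replicate 3), in a window shared with Prkag1. At the start in the promoter table, 2872 bp inside the span, its folds were 7.69, 6.90 and 5.22, in another order of libraries. That peak was narrow, 160 or 161 bp wide on nearly the same bounds in every list.

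Of the 10 Setd and Setdb genes all were open at an end in RC replicate 3 and EXT replicate 2, and 8 were in EXT replicate 1. Setd3, which methylates a histidine of actin, ranked highest with folds of 12.0, 9.36 and 15.9 at its printed promoter. That window overlaps the start of the neighbouring coding gene Ccnk, so the peak cannot be given to one gene. Setd2, the main writer of lysine 36 trimethylation, had folds of 8.16, 5.74 and 6.65. Setd6 was the lowest of those open in all lists, with folds of 2.79, 3.51 and 3.49. Setdb1, a writer of repressive lysine 9 methylation, had folds of 5.38 and 6.29 in RC replicate 3 and EXT replicate 2. Setd1b, a writer of lysine 4 methylation, had 2.83 and 3.14 there, on peaks at different places.

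Repressive writers of the Ezh, Ehmt and Suv39h class were open at all 6 genes in all 3 lists. Ezh2 and Ezh1 are the alternative catalytic subunits of Polycomb repressive complex 2. Ezh2 had folds of 8.67, 5.95 and 16.9, and Ezh1 had 5.78, 6.19 and 8.29. Suv39h1, a writer of heterochromatic lysine 9 methylation on the X chromosome, had 8.52, 5.95 and 14.2, and Suv39h2 had 5.84, 6.54 and 12.4. Ehmt1 and Ehmt2 encode partners that write lysine 9 dimethylation. Ehmt1 had 5.12, 7.10 and 8.82, but the peak of EXT replicate 2 (chr2:24919515-24919855) lay apart from that of the other libraries (chr2:24919011-24919170). Ehmt2 had 5.52, 5.49 and 3.19. Ehmt2 was the gene of this class lowest in EXT replicate 2, at percentile 53.0 against 89.2 and 90.6 in RC replicate 3 and EXT replicate 1. These values do not belong to one site. The best peak of EXT replicate 1 (chr17:34899145-34899444) lay apart from those of RC replicate 3 (chr17:34898718-34898877) and EXT replicate 2 (chr17:34898421-34898877). The end window of its neighbour Zbtb12 overlaps that of Ehmt2, but none of these peaks lay in the overlap.

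Acetyltransferases were less uniform. Of 8 Kat genes, 6, 5 and 7 had an end peak in the same order of libraries, and 5 had one in all 3. The 5 MYST genes, Kat5 to Kat8, accounted for 5, 4 and 5 of these, and Kat7, the catalytic subunit of HBO1 complexes, ranked highest of the Kat genes with an end peak in every list, with folds of 7.81, 8.32 and 11.0. Kat5, the catalytic subunit of NuA4, had folds of 3.15, 5.21 and 6.28, but the best peak was not at the same end. In EXT replicate 1 it lay toward the start (chr19:5609663-5610610), and in the other libraries beyond the far end (chr19:5601746-5602041 in RC replicate 3), in a window shared with Rnaseh2c. At the starts in the promoter table, 1462 and 1812 bp inside the span, Kat5 had a peak in every list, with folds of 5.20, 5.21 and 7.33. Kat2a, a subunit of SAGA, had folds of 3.43, 3.66 and 4.77. Its relative Kat2b had no peak at its start in any list, although a peak of 150 to 161 bp began 1057 or 1058 bp after the start with folds of 8.38, 4.02 and 20.8. Kat14, a subunit of the ATAC coactivator complex (unrelated to the assay), had an end peak in EXT replicate 2 alone (chr2:144368544-144369377, fold 4.88), in a window shared with Pet117.

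Fewer of the Prdm genes than of the other members had an open annotated end, by count. Of 14, 8, 6 and 9 had an end peak (57.1%, 42.9% and 64.3%), against 45, 40 and 46 of the 50 others (90.0%, 80.0% and 92.0%). The Prdm shares lay near those of all coding genes in the same lists (56.0%, 53.3% and 61.1%), and the other members lay above them. Averaged over the libraries the Prdm share differed from that of the other members by -32.6 percentage points. This is a count over a named list with no test, and members are not replicates. It depended on where the starts were placed: over the 51 members with entries in the promoter table, and with windows at every annotated start, the mean shares were 80.0% for 10 Prdm genes and 10.2 points more for the others. Best end peaks of Prdm genes were also narrow, with median widths of 281, 236.5 and 182 bp.

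Within the Prdm genes, Prdm4 had the highest mean percentile, although Prdm6 ranked above it in EXT replicate 1. Prdm4 had folds of 10.9, 7.72 and 17.0 and percentiles of 98.6, 94.8 and 99.6. Prdm2, known to methylate lysine 9, had folds of 9.45, 5.41 and 8.73. Prdm9, whose product writes lysine 4 methylation at meiotic recombination hotspots, had a peak across its printed start in all 3 lists, 1015, 837 and 1014 bp wide, with folds of 6.64, 6.76 and 14.2. Prdm13 and Prdm6 counted as open in all 3 lists partly through peaks of about 160 bp. Prdm6 (chromosome 18) had folds of 12.7, 11.9 and 7.29 on a peak of 160 bp with identical bounds in every list, and Prdm13 had another.

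Of the 5 Prdm genes without an end peak, Prdm10 was open at a start 4439 bp inside its span, with folds of 7.60, 7.10 and 8.84 and widths of 942, 899 and 1024 bp. Prdm16, a regulator of brown fat and neural stem cells, had no end peak but 30, 16 and 30 peaks inside its 321239 bp, more than any other member. One of these lay within 1 kb of a start 487 bp inside the span in RC replicate 3 (fold 6.28) and EXT replicate 1 (fold 5.41). Prdm1, a master regulator of plasma cells, had 3, 3 and 6 peaks inside and none at the start in the table. Prdm14, which acts in germ cells and early embryos (chr1:13113428-13127163), had no end peak in any of the 5 lists that reached it and a single peak inside, in EXT replicate 2 (fold 5.51).

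Peaks at these genes lay mostly at the end that holds the start. For the 51 members with an entry in the promoter table, a peak lay within 1 kb of the span end that holds the start in 40, 36 and 41 (78.4%, 70.6% and 80.4%), against 52.0%, 50.0% and 56.4% of 17491 coding genes. At the far end it was 7, 4 and 6 members (13.7%, 7.84% and 11.8%), against 14.1%, 11.6% and 17.1%. With every annotated start counted, 46, 43 and 46 members were open (90.2%, 84.3% and 90.2%), against 55.4%, 53.6% and 60.1%. The members thus stood above all coding genes at starts and not above them at far ends.

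The starts of these genes also share a sequence property that the choice by name did not use. The ratio of observed to expected CpG dinucleotides over the 300-base window nearest the outer end had a median of 0.818 in 51 members and 0.577 in all coding genes, and exceeded 0.6 in 45 members (88.2%) against 48.4%. Among genes above 0.6, 36 of 45 members (80.0%, exact 95% interval 65.4 to 90.4%) had a peak within 1 kb of that start in all 3 lists, and 80.5% of 8457 coding genes did. Against coding genes with CpG-rich starts, then, the members' share was no higher. Below that level 4 of 6 members did, against 18.4% of 9034 coding genes. Of CpG-rich Prdm starts 3 of 7 had a peak in all 3 lists, and of the other members' 33 of 38. At 0.6 or less the order was the reverse, with 3 of 3 Prdm starts and 1 of 3 starts of other members. The part of CpG content in the members' accessibility was not tested.

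**Figure D4:**
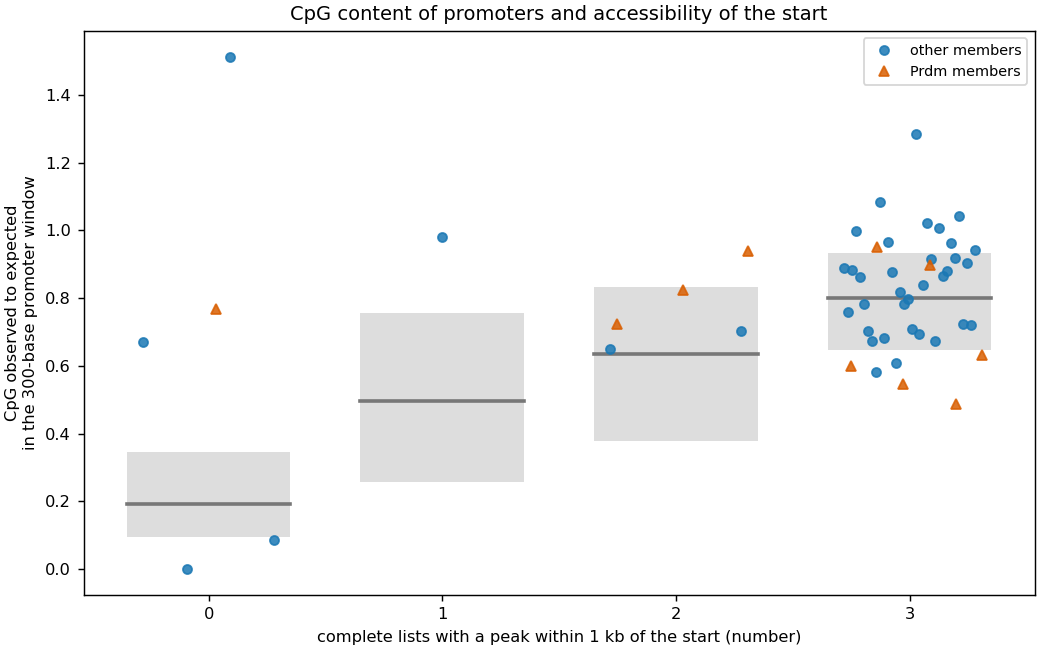
Observed to expected CpG ratio of the 300-base promoter window (vertical axis, no unit) by the number of complete lists with a peak within 1 kb of that start (horizontal axis), for 51 members (symbols) with the quartile range (grey) and median (line) of all 17491 coding genes. Members open in all 3 lists spread around the median of 0.800 for coding genes open in all 3, and 3 of the 5 members open in none lie above 0.6.

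The searched motifs occurred in the members' windows as follows. SP/KLF letters were in 29 of 51 windows (56.9% against 46.3% of all coding promoters), ETS in 10 (19.6% against 11.9%) and AP-1 in 5 (9.80% against 7.03%). The CRE was in 1 window, that of Suv39h2 (1.96% against 2.33%), YY1 in 1, the same window (1.96% against 0.972%), and NRF1 in none (1.33% of all). Among coding genes with a start peak in all 3 lists the SP/KLF and ETS shares were 68.7% and 20.0%. The AP-1 letters printed for Kdm4a and Kat2b stand at an open and a closed start.

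Inside the spans, away from the ends, members held 229, 196 and 311 peaks, or 5.85, 5.00 and 7.94 per 100 kb, against 5.17, 4.14 and 6.57 over all coding genes. The Prdm genes held 7.41, 4.55 and 7.94 per 100 kb, and the Setd and Setdb genes 3.42, 3.66 and 6.83. After Prdm16, most peaks were inside Kat6b (12, 13 and 27) and Kdm2b (13, 12 and 17), which encodes a CpG-binding demethylase that recruits a Polycomb complex. Kdm4b followed with 12, 10 and 12. Other long members held fewer, with 7, 7 and 9 in Kmt2c and 6, 6 and 3 in Kdm4c. The EXT libraries lay on both sides of the RC library for the total.

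**Figure D5:**
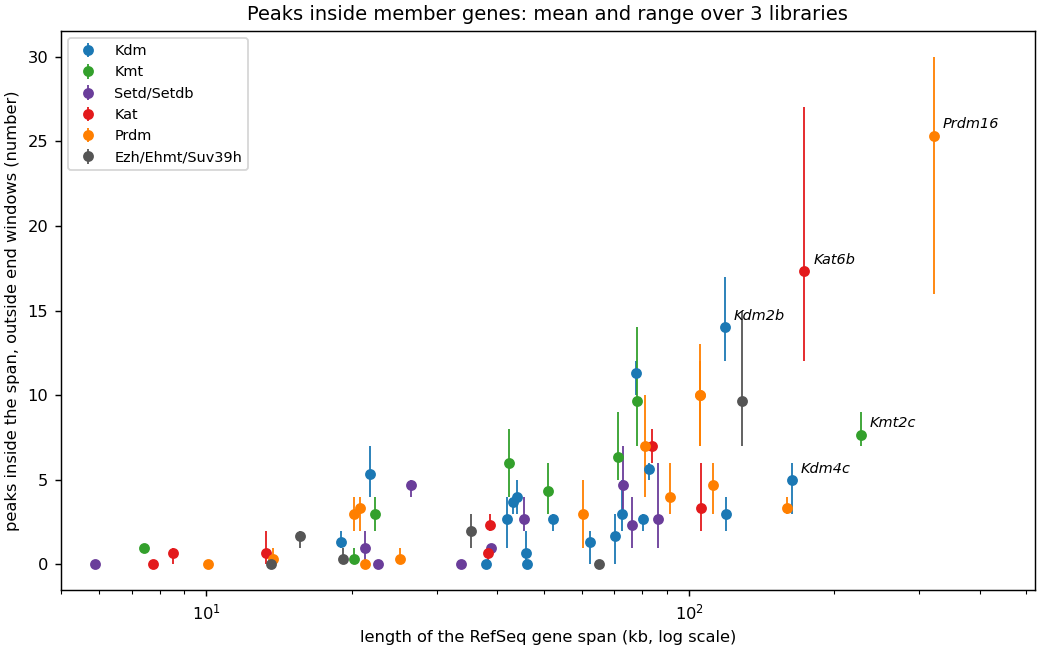
Number of peaks inside each member gene, outside the end windows (vertical axis, mean over the 3 complete libraries with bars from the lowest to the highest), against the length of its RefSeq span (horizontal axis, kb, log scale), coloured by subfamily. Prdm16, Kat6b and Kdm2b hold the most, and Kmt2c and Kdm4c, also long genes, hold fewer than 10 in each library.

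Some inside peaks were narrow and had identical bounds in every library. Peaks with the same bounds in all 3 complete lists numbered 5502 in the genome, or 5.62%, 6.81% and 4.46% of the lists. Of these, 16 lay inside 15 members and 3 at member ends, most 160 or 161 bp wide. They were 16 of the 229, 196 and 311 inside peaks, and 3.49%, 4.76% and 3.85% of the end peaks of members. The inside peak of this kind in Kat6b (chr14:21613510-21613670) had folds of 29.6, 20.8 and 38.7, and that in Kdm3a (chr6:71611108-71611268) had 24.9, 27.2 and 17.0. These were higher than the fold of the gene's best end peak in every list that held one. Kat6b had no end peak in EXT replicate 1. The authors kept duplicate tags and used no control library, per the file headers; their part in these peaks was not tested. The best end peak was at most 160 bp wide in 6, 6 and 2 members, or 11.3%, 13.0% and 3.64% of those with an end peak, against 13.1%, 13.0% and 8.04% of coding genes.

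Partner genes of these enzymes were taken from lists that hold no member. Open ends in every complete list were found at 59 of 73 such genes (80.8%), beside 71.9% of members and 49.0% of all coding genes, in some lists at 7 and in none at 7 (9.59%). Core subunits and partners of Polycomb repressive complex 2 were open in all 3 at 8 of 9, with Aebp2 lacking a peak in EXT replicate 1. Partners in the COMPASS complexes of the Kmt2 enzymes were open at 6 of 9; Ash2l and Dpy30 had no end peak, and Ncoa6, a coactivator bound to some of these complexes, was open at an end in EXT replicates 1 and 2 and closed in RC replicate 3. Other histone methyltransferases were open at 8 of 11, without Nsd1 and Smyd1, the latter a muscle gene. Other JmjC genes were open at 5 of 7 and other acetyltransferases at 6 of 8, with Taf1 closed at its ends. Partners in SAGA, NuA4, HBO1, MOZ and MSL complexes were open at 23 of 26, and all 3 HP1 genes, whose products bind lysine 9 methylation, were open.

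Close neighbouring genes limit how far a peak can be given to a member. Either end of each gene was counted here, so these are not counts of shared promoters. Of the 64, 28 had an end window overlapping that of another coding gene, and 23 of these (82.1%) were open in all 3 lists, against 69.9% of 7047 coding genes with such a neighbour. Of the 36 without one 23 were (63.9%), against 39.1% of 14836 coding genes.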

How the data were processed

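Peaks of 5 ATAC-seq libraries (3 RC, 2 EXT) were used; the third EXT library and the 6 capture libraries of the series were not analysed here. Each library's peaks were called alone by the authors with MACS 2.2.4, per the file headers, without a control, with a tag shift of -75 bp, an extension to 150 bp, all duplicates kept and a q cutoff of 0.05. The submitters' processing notes name mm10, MACS2 2.2.4, BWA 0.7.17, HISAT2 2.1.0, SAMtools 1.8, cutadapt 1.17, bedtools 2.27.1 and StringTie 2.1.4 for both assays together. The deposited pileup is a coverage signal, fold enrichment is the authors' ratio of pileup to local background, and the deposited −log10 p and −log10 q belong to the same list. Lists of RC replicates 1 and 2 end within chromosome 1 as held here, and the incomplete last line of each was dropped.

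Peaks were scored with Python 3.11.15 and pandas 2.3.3 against RefSeq spans, 1-based, and the scoring was tested on simulated peaks. Strand and inner starts came from a promoter table that held 51 of the 64 members. The members, lists and tests were chosen with earlier results of these data known. Genes described in full were, by rule, the highest and lowest of each subfamily, those on chromosome 1, those with no end peak, the 3 with most inside peaks and the 5 with the widest spread; other members were named for their role or after their values were seen. Some genes that the rule selects are not reported here. Libraries are pools of 5 mice, and p-values measure the spread between them. Alternatives were other windows, the summit, stricter or equal lists, wider peaks, start ends, no neighbours and leaving out each EXT library.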

Additional observations from a re-analysis of the deposited data

How the results depend on the processing

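No paired analysis was possible because the complete lists of the groups share no replicate number. The difference between EXT and RC in the share of members with an end peak turned to 0.781 points with 2 kb windows and to 3.12 points without EXT replicate 1; leaving out each EXT library in turn gave -10.9 to 3.12. Members open in RC replicate 3 and neither EXT list, 0 as reported, numbered 2 with 500 bp windows, 1 with −log10 q of at least 5, 1 with lists of equal length, 1 with peaks wider than 160 bp and 0 to 7 on leaving out an EXT library (7 without EXT replicate 2). Those open in both EXT lists and not RC replicate 3 numbered 1 with peaks wider than 160 bp and 0 to 2 on leaving out an EXT library (2 without EXT replicate 1). The lower share of Prdm genes, -32.6 points, was -25.6 with 500 bp windows, -23.2 with 2 kb windows, -37.3 with lists of equal length, -42.5 with peaks wider than 160 bp, -20.7 without coding neighbours and -10.2 with every annotated start, an alternative chosen after the data were seen. Mean shares of other subfamilies moved too, from 54.2% to 91.7% for Kat, 66.7% to 92.3% for Kdm and 77.8% to 100% for Kmt. Those of Setd and Setdb ranged from 85.2% to 100%, and those of Ezh, Ehmt and Suv39h from 94.4% to 100%. With 2 kb windows the Kat share (91.7%) was above the Kdm share (88.9%). Without coding neighbours 23 members were open in all 3 lists, since 36 were left. Inside peaks per 100 kb, 6.26 on average, fell to 4.38 both with −log10 q of at least 5 and with peaks wider than 160 bp. The cause of these shifts was not tested. Over all alternatives run, the median percentile of the best end peak stayed between 84.4 and 90.9, and 59 to 62.5 members per library on average had any peak. Peak lists hold no read counts, so openness below the authors' cutoff is not detectable here.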
